A study of Mus musculus with 17 samples.

Results

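The MHC class I antigen presentation genes were examined in distant, non-ablated MC38 tumors of mice. The group held 10 genes of the 21931 in the deposited table and was chosen by gene symbol. The members were the heavy chain genes H2-K1 and H2-D1, the light chain gene B2m, the peptide transporter genes Tap1 and Tap2, the tapasin gene Tapbp, the immunoproteasome genes Psmb8, Psmb9 and Psmb10, and the transactivator gene Nlrc5. MC38 is a colon cancer line derived from C57BL/6 mice, and the cells were implanted under the skin of both flanks of C57BL/6J mice that were 6 to 8 weeks old, with a genotype given as WT. In the Cryoablation group (8 tumors), freezing was applied to 1 of the 2 tumors of a mouse on day 7, in 2 cycles of 20 s per the sample labels (the study's methods give a longer freeze), and the untouched tumor was taken 5 days later. The Control group (9 tumors) carried the same MC38 tumors, and its tumors were labelled with the same day. Group sizes follow the sample labels, and the study's text gives them the other way round, so the assignment of tumors rests on the labels alone. The 17 tumors were profiled by bulk RNA sequencing. The labels do not state that each tumor came from a separate mouse, so p-values measure the spread between these samples.

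MHC class I molecules display peptides from inside the cell to CD8+ T cells. Proteins are cut by the proteasome, whose inducible subunits replace constitutive ones when cells sense interferon. The peptides are pumped into the endoplasmic reticulum by the transporter associated with antigen processing, and tapasin holds this transporter next to the heavy chain, which folds with beta-2 microglobulin and leaves for the cell surface once a peptide is bound. Most of these genes are switched on by interferon, and NLRC5 acts at a conserved promoter module of class I genes. Loss of these genes is a known route by which tumors escape T cells, and tumor cells, leukocytes and stromal cells can all express them, so a tumor's total does not say which cells made the RNA.

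The promoter stretches of the heavy and light chain genes are shown because these genes share the module through which NLRC5 and interferon act, and the stretch between Psmb9 and Tap1 because these neighbours are read away from each other. The sequences were taken from RefSeq (build GRCm38.p6), whose promoter windows run from 250 bases before to 50 bases after each gene start and had an entry for 8 of the 10 genes, with none for Tap2 and Nlrc5. Only bases before the start are printed, 5′ to 3′ on the strand of the gene. Capitals mark matches on either strand to ATTGG (the Y box core, CCAAT in reverse), TGACG (the X2 box core), TTTCNNTTC (a core of interferon response elements) and GGGATTCCC (a kappa B motif). No match in these stretches overlapped another.
H2-K1, chr17:34000348-34000547, minus strand: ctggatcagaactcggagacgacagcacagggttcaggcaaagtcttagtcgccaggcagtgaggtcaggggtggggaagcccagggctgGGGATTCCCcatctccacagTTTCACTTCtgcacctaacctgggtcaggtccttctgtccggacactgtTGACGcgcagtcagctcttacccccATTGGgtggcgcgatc
H2-D1, chr17:35262894-35263093, plus strand: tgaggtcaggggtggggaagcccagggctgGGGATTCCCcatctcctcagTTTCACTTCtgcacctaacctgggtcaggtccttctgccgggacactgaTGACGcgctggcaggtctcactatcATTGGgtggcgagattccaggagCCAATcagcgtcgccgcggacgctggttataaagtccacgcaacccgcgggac
B2m, chr2:122147487-122147686, plus strand: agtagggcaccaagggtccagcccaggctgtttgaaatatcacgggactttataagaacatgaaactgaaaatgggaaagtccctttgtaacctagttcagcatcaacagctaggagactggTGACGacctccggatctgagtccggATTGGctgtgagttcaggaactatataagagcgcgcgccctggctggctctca
Psmb9-Tap1, chr17:34187331-34187555, plus strand, with the Tap1 start to the right and the Psmb9 start to the left: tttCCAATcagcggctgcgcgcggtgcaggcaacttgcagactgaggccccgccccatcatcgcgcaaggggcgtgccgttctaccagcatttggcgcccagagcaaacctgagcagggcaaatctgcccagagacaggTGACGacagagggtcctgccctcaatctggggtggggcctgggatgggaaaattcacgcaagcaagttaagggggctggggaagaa

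The windows of H2-K1 and H2-D1 held all 4 motifs. In both, the first base of TGACG lay 25 bases before the first base of an ATTGG, and the same spacing was present in B2m. Among 27025 promoter windows, 26 (0.0962%) held the 2 motifs at that spacing, the non-classical class I gene H2-M3 among them. This spacing was chosen after the sequences were seen. The share of all windows with each motif was 37.9% for ATTGG, 21% for TGACG, 7.56% for TTTCNNTTC and 0.37% for GGGATTCCC, so the 2 short motifs alone are common. The windows of B2m, Tap1 and Psmb9 held ATTGG and TGACG, that of Tapbp held ATTGG, and those of Psmb8 and Psmb10 held none of these letters. Along 239 aligned bases, the windows of H2-K1 and H2-D1 were 88.3% identical. A match describes the letters of the window and is no evidence that a factor binds there. Only these exact letters were searched, so other forms of these elements, in B2m or elsewhere, would be left unmarked.

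Total counts were 13524899 to 17898672 per tumor, and no pair of tumors of a group agreed within sampling noise. Cryoablation replicates 2, 4 and 5 stood apart from the other 14 tumors. On the first principal component, which held 64% of the variance, they lay at 25.5 to 31.5 and the others at -16.7 to 9.52. Ribosomal protein genes took 13% to 15.2% of their counts, against 4.93% to 10.7% elsewhere, and genes shorter than 1500 bases took 11.5% to 12.6%, against 5.01% to 9.03%. Mitochondrial genes took 0.88% to 1.02% of their counts, against 1.19% to 1.59%. Fold changes of the members, medians of the gene lists and proteasome ratios are therefore given with and without these 3 tumors. Levels are normalised read counts (CPM), scaled by library total and edgeR's TMM factor, and fold changes are log2 of Cryoablation over Control.

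The data did not separate the groups for the class I genes as a whole. All 10 members had enough counts to be tested among 13005 genes. By edgeR's quasi-likelihood test, 0 of 10 had a Benjamini-Hochberg adjusted p under 0.05, as had 0% of all genes, and the same count was 0 with DESeq2 and with limma voom. At an unadjusted p under 0.05, 2 members were higher in the Cryoablation group, namely Psmb8 and Tap2, and 0 were lower, against 3.74% of all genes higher, 1.17% lower and 4.91% in either direction. DESeq2 gave 3 members at that threshold, all higher, against 5.17% of all genes higher and 6.77% in either direction, and limma voom gave 0, against 4.73% higher and 10.1% in either direction. The study's results section used a log2 fold change beyond 1 in size with a p-value under 0.05. Its methods section states a Benjamini-Hochberg adjustment. With that p taken as unadjusted, 0 members were counted under the rule, against 0.492% of all genes. The log2 fold change was above 0 for 8 members and below 0 for 2, with a median of 0.19, while 48% of all genes lay above 0 with a median of -0.01.

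Without Cryoablation replicates 2, 4 and 5, the log2 fold change was above 0 for 2 members and below 0 for 8, while 46.6% of all genes lay above 0. Their median was -0.09, against -0.01 for all genes, and the range was -0.30 to 0.03. By edgeR's test 0 members had an unadjusted p under 0.05, against 2.45% of all genes in either direction and 1.3% higher. For Tap2, Psmb8, Psmb9 and Psmb10, those 3 tumors lay above every other tumor of the study, and for the remaining members they were mixed with the others. The share of all genes with these 3 tumors above the rest is not given here. This is therefore a description and is not shown to be particular to class I genes. After correction of each library for gene length and GC content (offsets), 2 members were again higher at an unadjusted p under 0.05, against 4.43% of all genes higher and 5.61% in either direction, and 7 members lay above 0, against 55.2% of all genes. In bulk tissue, fewer cells of a type and less RNA per cell cannot be told apart. The part of library composition beyond these offsets was not tested.

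**Figure D1:**
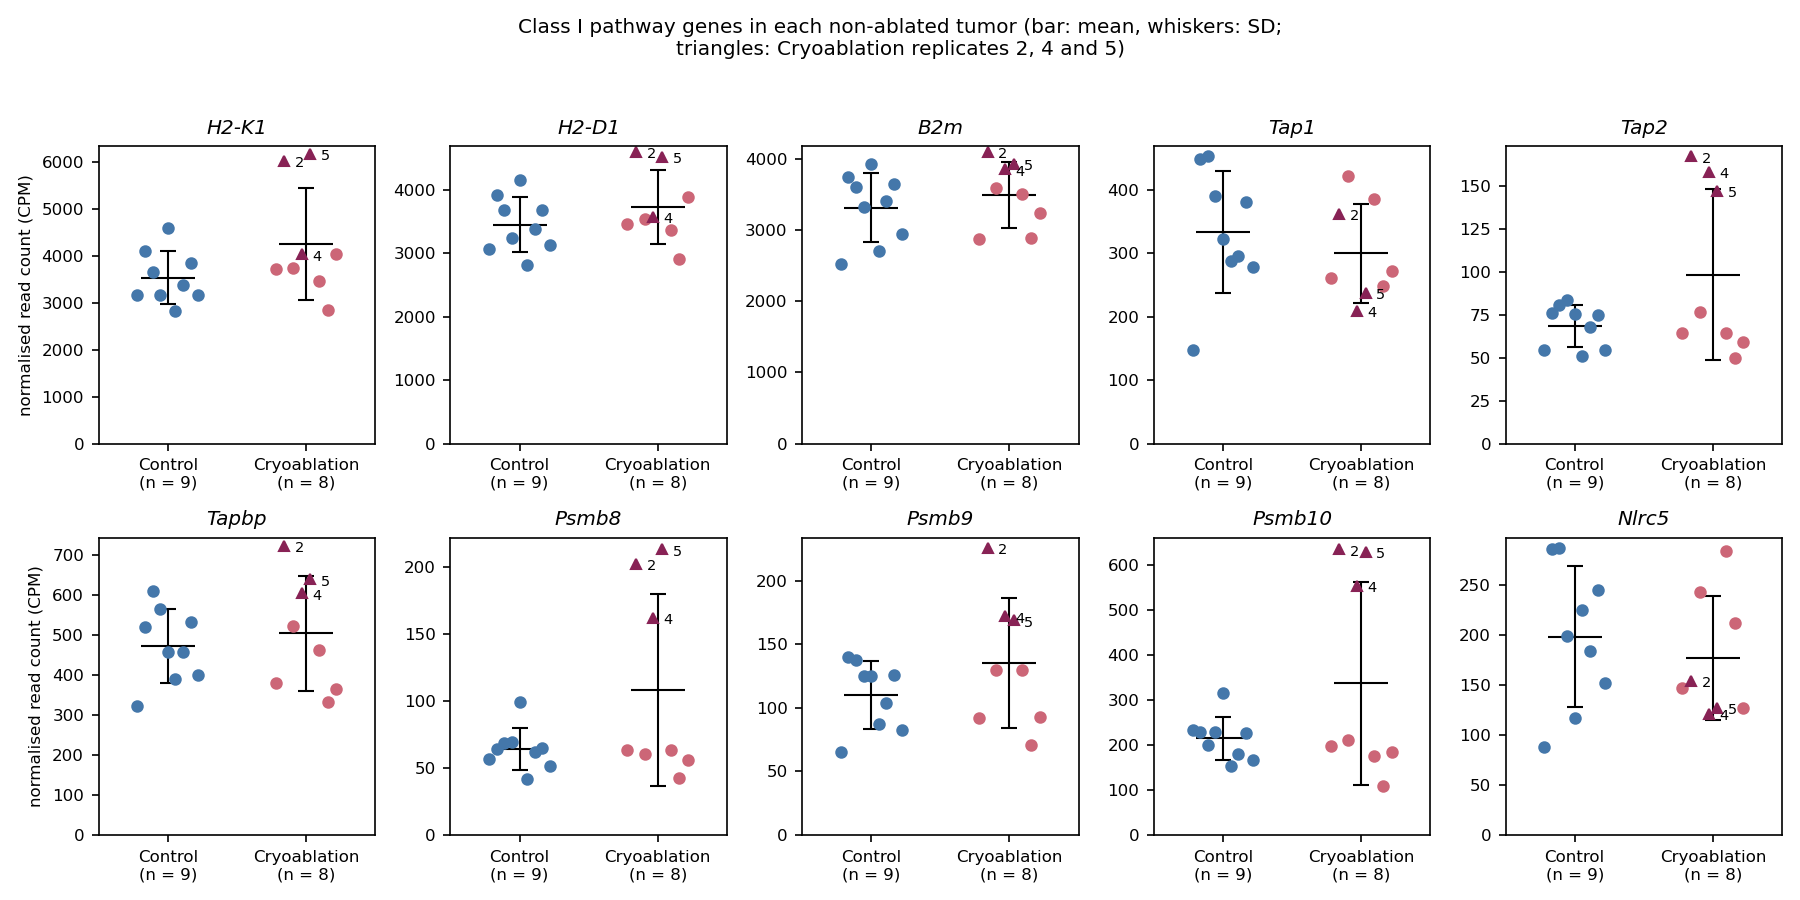
Normalised read count (CPM) of each class I pathway gene in 9 Control and 8 Cryoablation tumors, with 1 point per tumor and the mean and SD of each group. Cryoablation replicates 2, 4 and 5 (triangles) sit above all other tumors for Tap2, Psmb8, Psmb9 and Psmb10, and within the range of the Control tumors for Tap1 and Nlrc5.

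H2-K1 (ENSMUSG00000061232) and H2-D1 (ENSMUSG00000073411) encode the classical heavy chains of this strain. The deposited table places H2-K1 on chromosome 17 from 34214991 to 34219321 on the minus strand, and H2-D1 on the same chromosome from 35481706 to 35486475 on the plus strand. These positions belong to the table, which names no build, and are not those of the RefSeq windows. The lowest, median and highest H2-K1 levels were 2823, 3366 and 4578 CPM in the Control group and 2847, 3881 and 6159 CPM in the Cryoablation group. Cryoablation replicates 5 and 2 held the highest H2-K1 levels of all 17 tumors, at 6159 and 6023 CPM, while replicate 4, at 4027 CPM, was inside the Control range. The groups overlapped, and the Control median was exceeded by 7 of 8 Cryoablation tumors and the Control maximum by 2.

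The H2-K1 mean was 3533 ± 556 CPM in Control (SD, n = 9) and 4249 ± 1197 CPM in Cryoablation (SD, n = 8). Its log2 fold change was 0.27 (SE 0.15; edgeR, p = 0.101, adjusted p = 0.728; two-sided exact permutation test, p = 0.143). Limma voom gave 0.13. With 1 tumor left out the fold change was 0.17 to 0.33, and the unadjusted edgeR p was under 0.05 in 1 of 17 such fits (0.0407, without Cryoablation replicate 7). Without the 3 tumors it was 0.00 (SE 0.12; exact permutation p = 0.905), and the other 5 Cryoablation tumors averaged 3557 ± 446 CPM (SD). H2-D1 ranged from 2812 to 4150 CPM in Control, with a median of 3381, and from 2915 to 4596 CPM in Cryoablation, with a median of 3552. Its log2 fold change was 0.11 (SE 0.11; edgeR, adjusted p = 0.768) and became -0.02 (SE 0.11) without the 3 tumors. The groups of H2-D1 overlapped over most of their range.

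The 2 heavy chain genes moved together from tumor to tumor. Across the 14 tumors without Cryoablation replicates 2, 4 and 5, Pearson's r of their log2 CPM was 0.98, and it stayed at 0.97 without the 2 tumors farthest from the median. Reads shared by both genes were not separated, and their longest coding transcripts were 91.1% identical over 1578 aligned bases, and 8.79% of the 50-base words of H2-K1 and 14.3% of those of H2-D1 occur in transcripts of other genes as well. How such reads were assigned is not given in the sources used here, so the split between the heavy chain genes is uncertain. The ratio of H2-K1 to H2-D1 per base of gene length was 0.854 to 0.968 in the 9 Control tumors and 0.858 to 0.944 in the other 5 Cryoablation tumors, but 1.15, 0.99 and 1.2 in Cryoablation replicates 2, 4 and 5. This ratio was chosen after the values were seen and has no test.

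B2m (ENSMUSG00000060802; chromosome 2, 121978167 to 121983564, plus strand) encodes beta-2 microglobulin, the light chain that every class I molecule needs. Its lowest, median and highest levels were 2523, 3402 and 3929 CPM in Control and 2875, 3543 and 4093 CPM in Cryoablation. Cryoablation replicate 2 alone lay above the Control maximum, and 5 of 8 of its group exceeded the median of the Control tumors. B2m had a log2 fold change of 0.08 (SE 0.11; edgeR, adjusted p = 0.814; exact permutation p = 0.440). Its sign depended on the processing, being -0.05 (SE 0.12) without the 3 tumors, -0.15 with the offsets and -0.06 with limma voom. B2m lies within the span of Patl2 on the opposite strand, and Patl2 had 0 to 3 counts in every tumor.

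Tap1 and Tap2 encode the subunits of the peptide transporter. Tap1 (ENSMUSG00000037321; chromosome 17, 34406527 to 34416199, plus strand) did not share the high Tap2 level of Cryoablation replicates 2, 4 and 5. Its lowest, median and highest levels were 148, 323 and 453 CPM in Control and 209, 266 and 421 CPM in Cryoablation. The lowest Tap1 level of all tumors was in Control replicate 1, and Cryoablation replicates 4 and 5, at 209 and 237 CPM, were the lowest of their group. Tap1 had a log2 fold change of -0.16 (SE 0.19; edgeR, adjusted p = 0.793; exact permutation p = 0.553), and -0.08 (SE 0.22) without the 3 tumors. Tap1 shares 212 bases with Psmb9 on the opposite strand, and whether the counting used strand is not given in the sources used here.

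Tap2 (ENSMUSG00000024339; chromosome 17, 34422501 to 34435295, plus strand) ranged from 50.8 to 83.4 CPM in Control, with a median of 74.6. In the Cryoablation group it ranged from 49.7 to 167 CPM, with a median of 70.5, which was below the Control median. Cryoablation replicates 2, 4 and 5 held 167, 158 and 147 CPM, all above every Control tumor, while the other 5 averaged 62.8 ± 9.70 CPM (SD). Tap2 had a log2 fold change of 0.52 (SE 0.24; edgeR, p = 0.0438, adjusted p = 0.728), the exact permutation test gave p = 0.158, the offsets left it at 0.50, and limma voom gave 0.01 (unadjusted p = 0.942). It turned to -0.13 (SE 0.14; exact permutation p = 0.425) without the 3 tumors. Leaving out single tumors kept the direction, with 0.36 to 0.60, and the unadjusted edgeR p was under 0.05 in 8 of 17 such fits. It was at or over 0.05 without Control replicates 1, 2, 6, 7, 8 or 9 (log2 fold changes 0.48, 0.52, 0.46, 0.51, 0.52 and 0.47) or without Cryoablation replicates 2, 4 or 5 (0.36, 0.38 and 0.41).

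The balance of the transporter subunits also set these 3 tumors apart. Per base of length, Tap2 over Tap1 was 0.244 to 0.533 in the Control tumors, with a median of 0.285, and 0.241 to 0.359 in the other 5 Cryoablation tumors. In Cryoablation replicates 2, 4 and 5 it was 0.668, 1.09 and 0.897, so these tumors did not overlap with the rest. This comparison, like that of the heavy chains, was chosen after its values were seen and is a description. Of the 50-base words of Tap2, 0.737% also occur in Tap1.

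Tapbp (ENSMUSG00000024308; chromosome 17, 34134873 to 34148266, plus strand) encodes tapasin. It ranged from 323 to 610 CPM in Control, with a mean of 472 ± 92.3 CPM (SD, n = 9), and from 333 to 723 CPM in Cryoablation, with a mean of 504 ± 143 CPM (SD, n = 8). Cryoablation replicates 2 and 5 were above the Control maximum, at 723 and 639 CPM, and replicate 4 was near its top, at 604 CPM. The log2 fold change of Tapbp was 0.09 (SE 0.16; edgeR, adjusted p = 0.836; exact permutation p = 0.699). It was -0.20 (SE 0.15) without the 3 tumors, -0.18 with limma voom and -0.00 without Cryoablation replicate 2. The table's Tapbp shares 3422 bases with Zbtb22 on the same strand, and Zbtb22 had 272 to 679 counts.

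Among the immunoproteasome subunits, Psmb8 and Psmb10 held the largest fold changes of the 10 members in the edgeR test of all 17 tumors. With the offsets, Psmb10 (0.33) was below Tap2 (0.50). Psmb8 (ENSMUSG00000024338; chromosome 17, 34416695 to 34420428, plus strand) encodes LMP7, the inducible form of the chymotrypsin-like subunit. In Control its lowest, median and highest levels were 41.7, 64.0 and 99.1 CPM, and in Cryoablation 42.9, 63.4 and 213 CPM. The medians thus differed by less than 1 CPM, and the group means, 64.2 ± 15.8 CPM (SD, n = 9) and 108 ± 71.6 CPM (SD, n = 8), were separated by Cryoablation replicates 2, 4 and 5, at 202, 162 and 213 CPM. The highest Control tumor, replicate 5, held 99.1 CPM.

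Psmb8 had a log2 fold change of 0.75 (SE 0.31; edgeR, p = 0.0261, adjusted p = 0.728; exact permutation p = 0.146), and 0.71 with the offsets. Without the 3 tumors it was -0.17 (SE 0.16; exact permutation p = 0.421), with the other 5 Cryoablation tumors at 57.3 ± 8.59 CPM (SD). Its unadjusted p passed 0.05 in 14 of 17 fits that left out a single tumor and missed it without Cryoablation replicate 2, 4 or 5, at log2 fold changes of 0.55, 0.64 and 0.53. With limma voom, which gives less weight to tumors that vary more, the log2 fold change was 0.10.

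Psmb9 (ENSMUSG00000096727; chromosome 17, 34400961 to 34406738, minus strand) encodes LMP2, the inducible form of the caspase-like subunit. Its lowest, median and highest levels were 65.3, 125 and 140 CPM in Control and 71.1, 130 and 226 CPM in Cryoablation. Cryoablation replicates 2, 4 and 5 were the highest of all tumors, and the other 5 averaged 103 ± 25.9 CPM (SD), close to the Control mean of 110 ± 26.7 CPM. Psmb9 had a log2 fold change of 0.29 (SE 0.21; edgeR, adjusted p = 0.734; exact permutation p = 0.304). It was -0.11 (SE 0.19) without the 3 tumors, -0.06 with limma voom and 0.15 to 0.38 with 1 tumor left out.

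Psmb10 (ENSMUSG00000031897; chromosome 8, 106662367 to 106665076, minus strand) encodes MECL-1, the inducible form of the trypsin-like subunit. Levels in Control were 154, 226 and 316 CPM at the lowest, median and highest tumor, and those in Cryoablation were 109, 205 and 635 CPM. Cryoablation replicates 2, 4 and 5 held 635, 554 and 630 CPM, well above Control replicate 5, the next tumor, while the other 5 averaged 176 ± 39.9 CPM (SD) and included the lowest tumor of the study. Psmb10 had a log2 fold change of 0.65 (SE 0.32; edgeR, p = 0.0547, adjusted p = 0.728; exact permutation p = 0.275), and 0.33 with the offsets. It turned to -0.30 (SE 0.17; edgeR, p = 0.108; exact permutation p = 0.146) without the 3 tumors. DESeq2 put Psmb10 under an unadjusted p of 0.05, with an adjusted value of 0.677, whereas limma voom gave a log2 fold change of 0.05 (unadjusted p = 0.805).

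**Figure D2:**
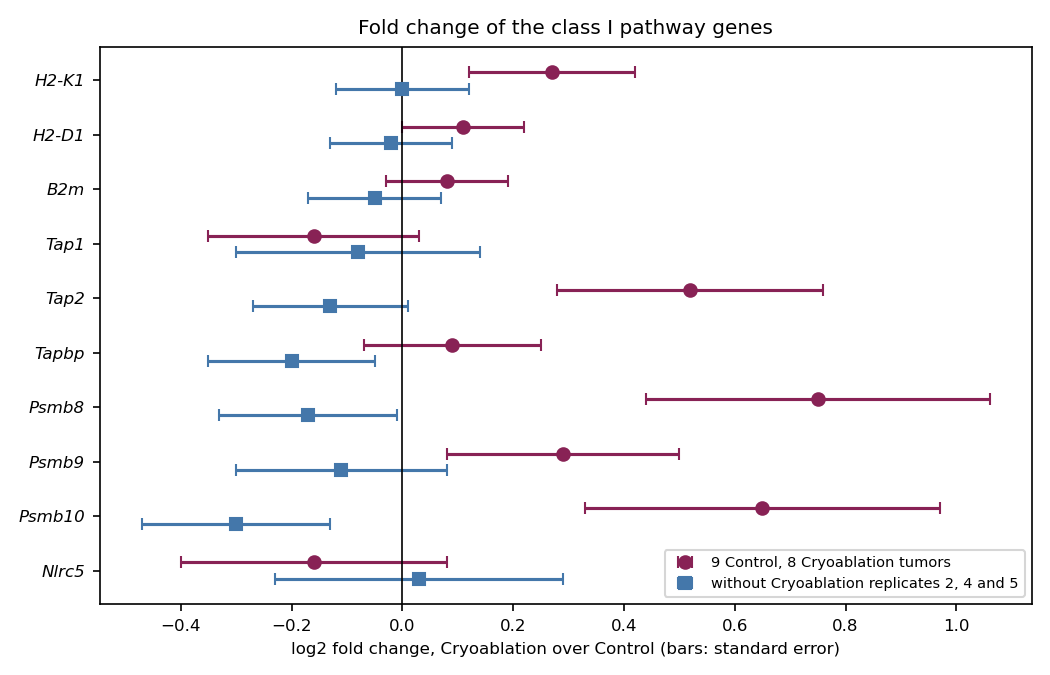
Log2 fold change of each member (Cryoablation over Control, edgeR) with its standard error, for all 17 tumors and without Cryoablation replicates 2, 4 and 5. Psmb8, Psmb10 and Tap2 lie at 0.75, 0.65 and 0.52 with all tumors and at -0.17, -0.30 and -0.13 without the 3.

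Nlrc5 (ENSMUSG00000074151; chromosome 8, 95160984 to 95253900, plus strand) encodes the class I transactivator. Its lowest, median and highest levels were 87.8, 199 and 287 CPM in Control and 121, 150 and 284 CPM in Cryoablation. Unlike the immunoproteasome genes, it was not high in the tumors that stood apart, with 154, 121 and 127 CPM in Cryoablation replicates 2, 4 and 5. The other 5 averaged 203 ± 65.6 CPM (SD). Similarly low levels occurred elsewhere, in Control replicates 1 and 5 (87.8 and 117 CPM) and Cryoablation replicates 8 and 1 (127 and 147 CPM). Nlrc5 had a log2 fold change of -0.16 (SE 0.24; edgeR, adjusted p = 0.809; exact permutation p = 0.594) and 0.03 (SE 0.26) without the 3 tumors. With 1 tumor left out this fold change was -0.30 to -0.09, and limma voom gave -0.31. The groups overlapped over nearly their whole range.

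Compared per base of gene length, in FPKM, the members covered a wide range of levels in the Control group. B2m led at 3985 ± 641 FPKM (SD, n = 9), followed by H2-D1 at 1383 ± 180 and H2-K1 at 1241 ± 181 FPKM. Tapbp (135 ± 31.3 FPKM) and Psmb10 (129 ± 23.1 FPKM) came next and overlapped. Tap1 was at 63.6 ± 20.2, Psmb9 at 31.4 ± 8.27, Nlrc5 at 24.5 ± 9.57, Psmb8 at 19.5 ± 4.14 and Tap2 at 18.8 ± 3.75 FPKM. The ranges of neighbours did not overlap between B2m and H2-D1, between H2-K1 and Tapbp, and between Psmb10 and Tap1, and overlapped for every other pair of neighbours. The light chain therefore exceeded both heavy chains in all 9 Control and all 8 Cryoablation tumors. These levels rest on the listed gene lengths, and that of Psmb8, 3381 bases, covers nearly its whole gene, introns included.

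Each inducible subunit takes the place of a constitutive subunit, so their ratio within a tumor does not depend on the scaling of libraries. Psmb8 over Psmb5, per base of length, averaged 0.648 ± 0.181 in Control (SD, n = 9) and 0.718 ± 0.201 in Cryoablation (SD, n = 8). The log2 difference was 0.15 (two-sided exact permutation test, p = 0.447, adjusted over the 3 ratios p = 0.671), and 0.05 without the 3 tumors (exact permutation p = 0.797). Psmb9 over Psmb6 averaged 0.399 ± 0.157 and 0.372 ± 0.142, with a log2 difference of -0.07 (exact permutation p = 0.802), and 0.11 without the 3 tumors (exact permutation p = 0.759). For Psmb8 and Psmb9 the ratios of Cryoablation replicates 2, 4 and 5 fell inside the Control range, since Psmb5 and Psmb6 were higher in those tumors too.

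Psmb10 over Psmb7 was high in Cryoablation replicates 2, 4 and 5. It averaged 6.36 ± 0.84 in Control and 10.3 ± 7.35 in Cryoablation, with a log2 difference of 0.39 (exact permutation p = 0.27, adjusted p = 0.671). On the log2 scale, those 3 tumors lay at 3.93 to 4.55, above the Control range of 2.35 to 2.92, and the other 5 averaged 2.35 ± 0.40 (SD). Without the 3 tumors the log2 difference was -0.30 (exact permutation p = 0.0744, adjusted p = 0.223). Psmb7 itself was at 67.5 ± 11.2 CPM in Control and 67.8 ± 11.8 CPM in Cryoablation.

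**Figure D3:**
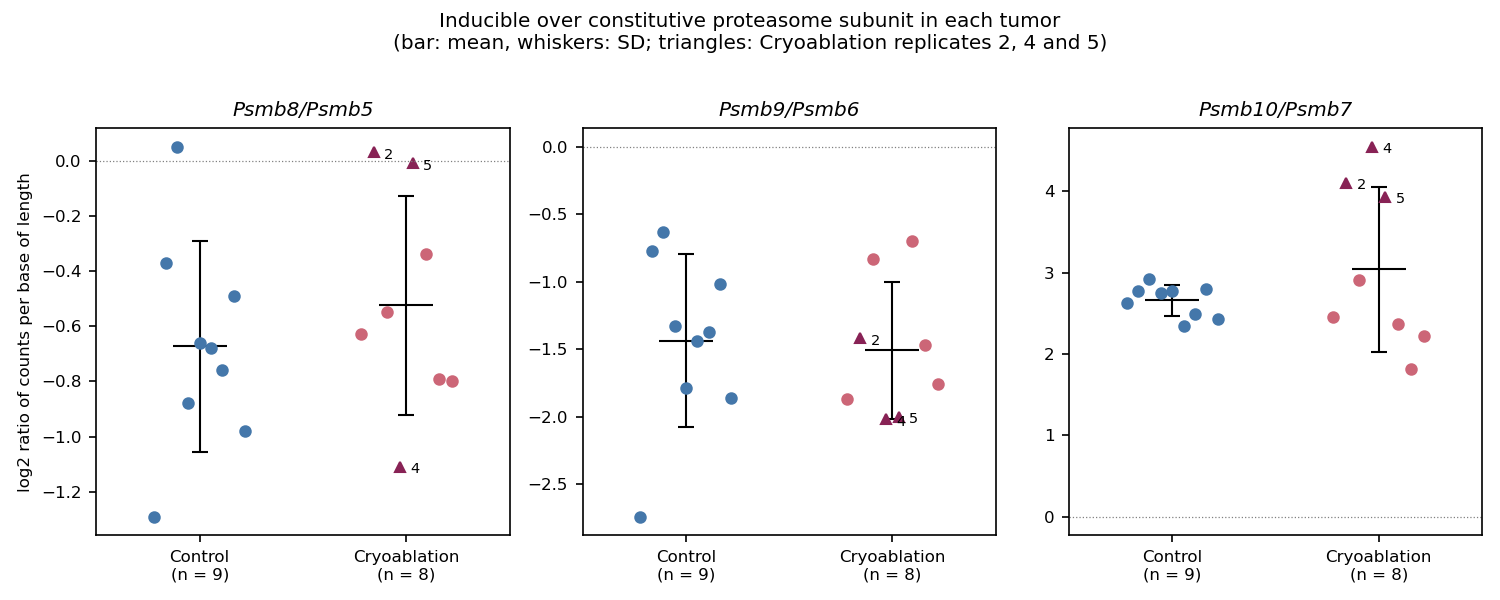
Log2 ratio of each inducible proteasome subunit to its constitutive counterpart, per base of gene length, in each tumor, with the mean and SD of each group. For Psmb10/Psmb7 the 3 triangles lie at 3.93 to 4.55, above all Control tumors (2.35 to 2.92), and for the other ratios the groups overlap throughout.

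Among the 45 pairs of members, over the 14 tumors without Cryoablation replicates 2, 4 and 5, Pearson's r of log2 CPM was above 0 in 42, with a median of 0.68. Of these pairs, 29 had a permutation p under 0.05 after adjustment over the 45, all with r of 0.61 or more. Among all pairs of the 13005 tested genes, 49.7% had r above 0 and 13% had r at or above that value. Psmb9 and Tap1, which share the stretch printed above, had an r of 0.93, and Tap1 and Tap2 one of 0.75. With all 17 tumors, 38 pairs were above 0 and 30 passed, at r of 0.52 or more, with a median of 0.76. Of all gene pairs 50% were then above 0 and 19.8% at or above 0.52. This pooled value includes the gap between the 3 tumors and the rest. With those tumors the r of Psmb9 with Tap1 fell to 0.47 and that of Tap2 with Tap1 to 0.07, and in those tumors Tap2 and Psmb9 were high while Tap1 was not. Psmb9 over Tap1, per base of length, was 0.446 to 0.659 in Control, 0.428 to 0.528 in the other 5 Cryoablation tumors, and 0.934, 1.23 and 1.07 in Cryoablation replicates 2, 4 and 5. Points of a correlation share the library's scaling and its mix of cells.

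**Figure D4:**
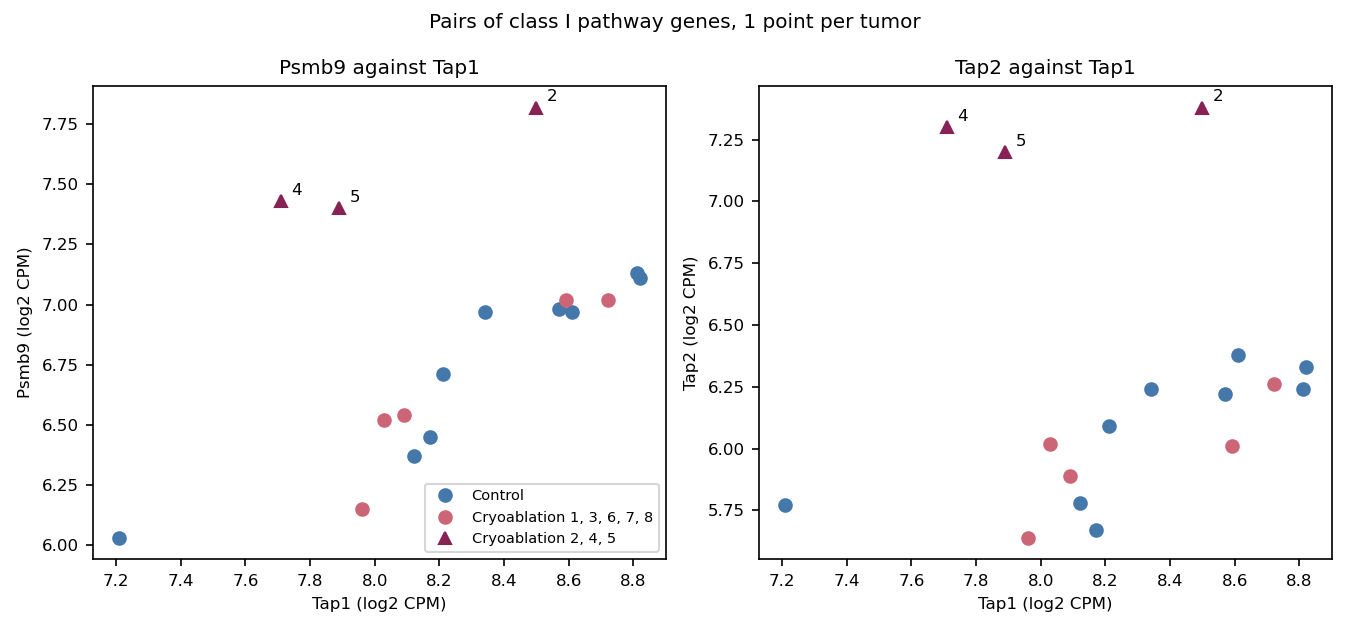
Psmb9 (left) and Tap2 (right) against Tap1, all in log2 CPM, with 1 point per tumor. The 14 other tumors form a rising band (r of 0.93 and 0.75), and Cryoablation replicates 2, 4 and 5 lie above it.

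**Figure D5:**
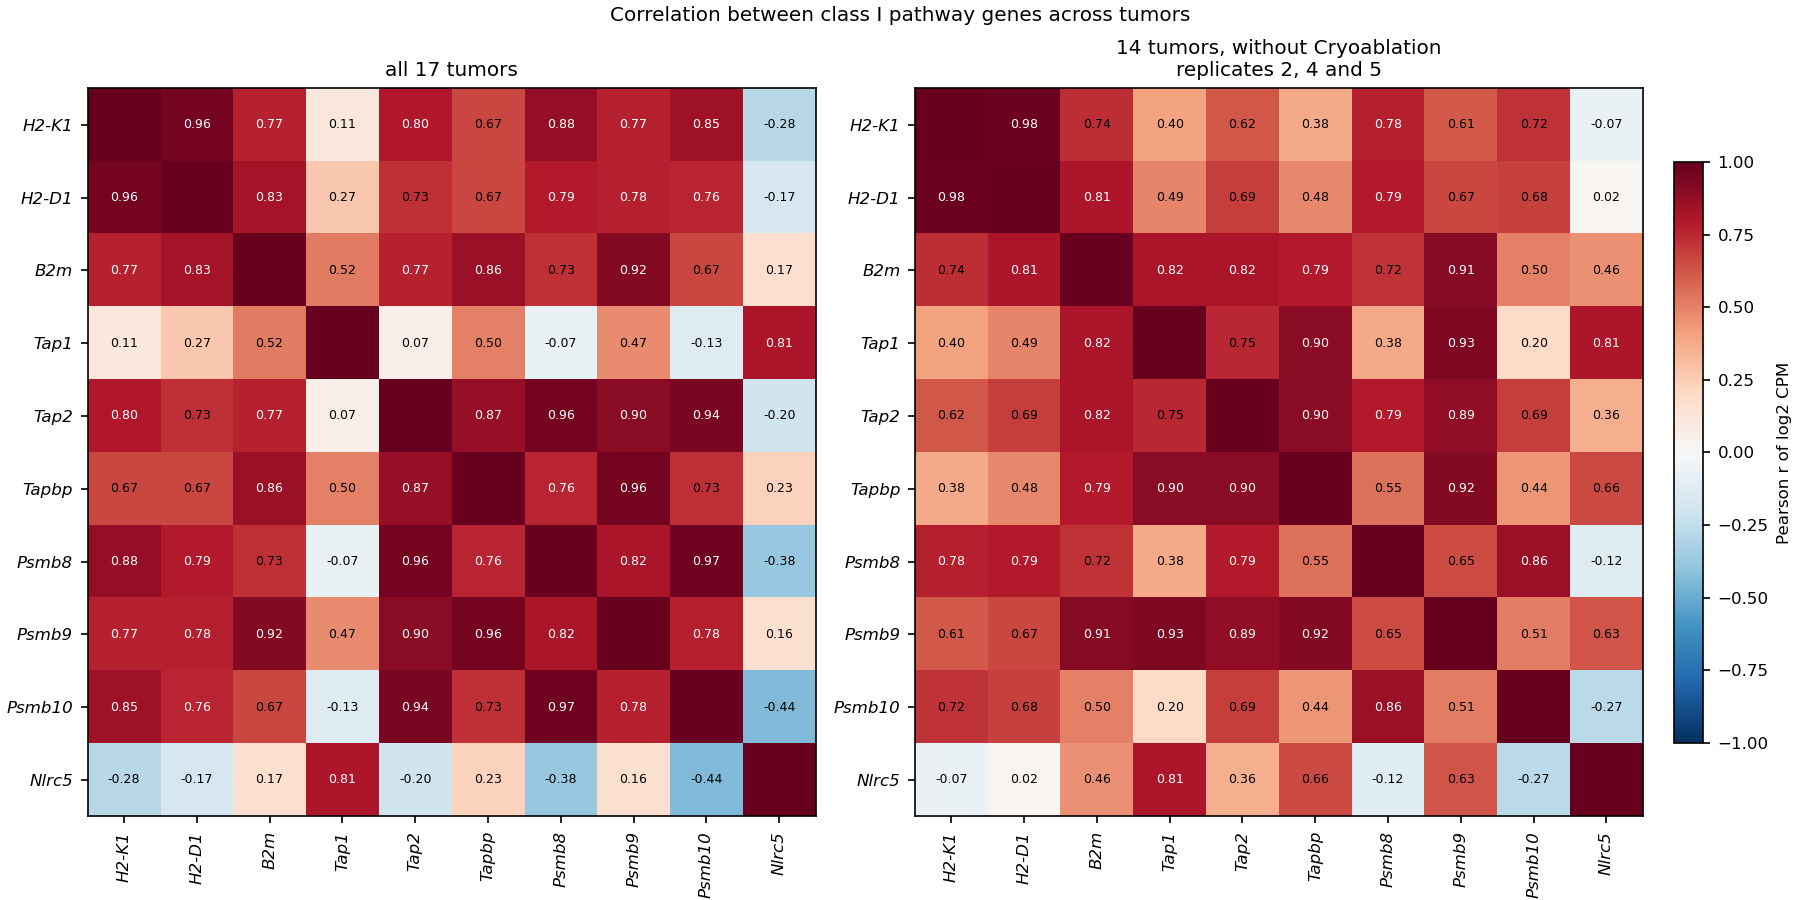
Pearson's r of log2 CPM for each pair of members, with all 17 tumors (left) and with 14 tumors (right). In the 14 tumors 42 of 45 pairs are above 0, and the low values are those of Nlrc5 with H2-K1, Psmb8 and Psmb10.

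Relations of the members with Nlrc5 and with Ptprc, the leukocyte marker CD45, were adjusted as a family of 19. The share of all genes related as strongly to Nlrc5 or Ptprc is not given here. These relations are therefore not shown to be particular to the members. Over the 14 tumors, Nlrc5 followed Tap1 most closely (r = 0.81, rho = 0.75; permutation p = 0.00045 and 0.00278, adjusted p = 0.00475 and 0.0112), and r was 0.78 without the 2 tumors farthest from its median. It also followed Tapbp (r = 0.66, rho = 0.68; permutation p = 0.0118 and 0.00955, adjusted p = 0.0374 and 0.0227) and Psmb9 (r = 0.63, rho = 0.73; permutation p = 0.0168 and 0.00444, adjusted p = 0.04 and 0.0141). With the 3 other tumors added, the r with Tap1 was again 0.81 (adjusted permutation p = 0.00076), and those with Tapbp and Psmb9 were 0.23 and 0.16. Nlrc5 showed no relation with the heavy chain genes that passed the test, at r = -0.07 with H2-K1 and r = 0.02 with H2-D1. After offsets for gene length and GC content, r over the 14 tumors was 0.34 with H2-K1, 0.64 with H2-D1 and 0.94 with B2m, so these relations depended on that correction.

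Ptprc was related to Tapbp (r = 0.80, adjusted permutation p = 0.00475), Tap1 (r = 0.78, adjusted p = 0.00731 by permutation) and Nlrc5 (r = 0.75, adjusted permutation p = 0.00731) over the 14 tumors. Its rho was 0.85 with Tapbp, 0.85 with Tap1 and 0.76 with Nlrc5, and r without the 2 tumors farthest from its median was 0.71, 0.72 and 0.84. Weaker relations passed with Psmb9 (r = 0.65) and Tap2 (r = 0.62), and those fell to 0.51 and 0.46 without the 2 farthest tumors. After the offsets, the relations of Ptprc with Nlrc5 (r = 0.51, adjusted permutation p = 0.107) and Psmb9 (r = 0.58, adjusted permutation p = 0.0529) no longer passed, whereas those with Tapbp (0.76), Tap1 (0.65) and Tap2 (0.74) did. H2-K1 and H2-D1 showed r of -0.09 and 0.03 with Ptprc. With all 17 tumors the r of Ptprc was 0.21 with Tapbp, 0.72 with Tap1, 0.77 with Nlrc5, 0.07 with Psmb9 and -0.19 with Tap2. Ptprc is 1 of 5 leukocyte markers, and they differed among themselves in Cryoablation replicates 2, 4 and 5. Ptprc alone was lower there, averaging 42.6 CPM, against 76.1 CPM in the other 5 Cryoablation tumors. Coro1a, Cd52, Laptm5 and Cd53 averaged 194, 170, 161 and 71.7 CPM, against 82, 51.3, 121 and 64 CPM. The part of leukocyte content in the members' values was not tested.

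The genes whose level over all 17 tumors was most like the mean of the standardised members included H2-Q4 (r = 0.95), Ubd (0.91), Bst2 (0.90), Apol9a (0.89), H2-DMb1 (0.89), Xaf1 (0.88), Ly6a (0.88), Ifi47 (0.88) and H2-T23 (0.87). Without Cryoablation replicates 2, 4 and 5 they included Rtp4 (0.91), Parp10 (0.89), Irf7, Igtp, H2-Q4, Batf2 and Cxcl11 (0.88 each), H2-T23 (0.87) and Lap3 (0.87). H2-Q4 and H2-T23 were named in both. The members themselves had r of 0.43 (Nlrc5) to 0.96 (Psmb9) with this mean in the 14 tumors. These values are given as a description, with no test.

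Other genes of the pathway did not pass the adjusted test with edgeR, DESeq2 or limma voom. Of 10 genes of peptide loading and trimming, 0 had an unadjusted edgeR p under 0.05, and the median log2 fold change was -0.02. The chaperones Calr and Pdia3 had log2 fold changes of 0.12 and 0.03, the trimming enzyme Erap1 one of -0.18, and the largest was that of the tapasin-related gene Tapbpl, at -0.21 (SE 0.15). DESeq2 called 0 of them at an unadjusted p under 0.05, and limma voom called Tapbpl lower. The median without the 3 tumors was -0.06.

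Of 8 proteasome activator, assembly and constitutive beta subunit genes, 0 had an unadjusted p under 0.05 with edgeR, DESeq2 or limma voom. Their median log2 fold change was 0.42 and turned to -0.19 without Cryoablation replicates 2, 4 and 5. The activator genes Psme1 and Psme2 had log2 fold changes of 0.52 (SE 0.28) and 0.44 (SE 0.26), the assembly factor Pomp 0.40 (SE 0.22), and the constitutive subunit gene Psmb5 0.53 (SE 0.30), the largest of the list. Psme1 averaged 425 CPM in the 3 tumors, 145 CPM in the other 5 Cryoablation tumors and 175 ± 40.6 CPM in Control. Psme3, Psme4 and Psmb7, at -0.14, 0.03 and 0.00, did not share this pattern.

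Of 18 non-classical class I heavy chain genes, 15 were in the table and 12 were tested. By edgeR 0 had an unadjusted p under 0.05, with a median log2 fold change of -0.08. H2-Q4 had 0.27 (SE 0.14), H2-T10 0.33 (SE 0.16), and H2-T24 the largest, -0.58 (SE 0.38). DESeq2 called H2-T10 higher and limma voom called H2-Q7 lower at an unadjusted p under 0.05. Without the 3 tumors the median was -0.17 and edgeR called H2-Q7 lower, at -0.70. Reads of these genes may be shared with the classical heavy chains, of which H2-D1 shares 7.4% of its 50-base words with H2-Q1 and 5.99% with H2-Q7.

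Of 21 regulators of class I genes, 0 had an unadjusted edgeR p under 0.05, and the median log2 fold change was -0.08, and -0.03 without the 3 tumors. Stat2, which carries type I interferon signals, had -0.36 (SE 0.27), the largest of the list, and Irf1 had -0.08 (SE 0.16). Of the RFX subunits that bind the class I module, Rfx5 averaged 2.48 CPM in Cryoablation replicates 2, 4 and 5. It averaged 14 CPM in the other 5 and 10.6 ± 4.52 CPM in Control. In the same order, Rfxap averaged 57.9, 37 and 36 ± 9.37 CPM, and Rfxank 13, 7.68 and 7.84 ± 2.43 CPM. DESeq2 called Rela and limma voom called Rfxap higher at an unadjusted p under 0.05.

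Of 7 genes for class I receptors and interferon gamma, 0 had an unadjusted edgeR p under 0.05, 0 with DESeq2, and 1, Ifng, was lower with limma voom. Their median log2 fold change was -0.34, with and without the 3 tumors. Klrc1, which encodes the inhibitory receptor NKG2A, had the largest, -0.62 (SE 0.38). Ifng was at 2.41 ± 1.27 CPM in Control, at 3.58 CPM in Cryoablation replicates 2, 4 and 5 and at 0.953 CPM in the other 5, and without the 3 tumors its log2 fold change was -1.33, the 1 gene of the list then under an unadjusted p of 0.05.

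Marker genes of other cells gave the setting of these values. Of 5 leukocyte markers, whose median log2 fold change was -0.13, and -0.36 without the 3 tumors, 0 passed an unadjusted p of 0.05 with edgeR, and their mean log2 CPM was 6.75 to 6.79 in Cryoablation replicates 2, 4 and 5, 5.60 to 6.57 in the other 5 and 5.96 to 7.56 in Control. The 8 T and NK cell markers ranged from 2.56 to 3.61, from 1.74 to 2.96 and from 2.04 to 3.99 in the same order, with 0 passing, a median of -0.15, and -0.43 without the 3 tumors, where Cd3d was lower. Of 6 macrophage markers, Adgre1 was lower at an unadjusted p under 0.05 (-0.69, SE 0.29), while Cd14 and Fcgr1 had 0.32 and 0.16. Without the 3 tumors 0 macrophage markers passed, Adgre1 having -0.64, and the median went from -0.11 to -0.34. Of 4 neutrophil markers, Ly6g had too few counts, S100a8 and S100a9 were higher at an unadjusted p under 0.05 (1.34 and 1.61), and Csf3r had -0.51. Without the 3 tumors 0 of them passed, at 0.99, 1.40 and -0.32. Of the dendritic and B cell markers 4 of 6 were tested and 0 passed, with a median of -0.23, and -0.16 without the 3 tumors. Of 6 fibroblast and vessel markers 0 passed, with a median of -0.27, and -0.15 without the 3 tumors, and their mean log2 CPM was 6.74 to 6.81 in those 3 and 6.79 to 7.96 in Control. Against edgeR, DESeq2 called only S100a8, S100a9 and the keratin gene Krt19, and limma voom Cd3e, Mrc1 and Flt3, among the markers of these cells and of epithelium.

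The labels describe the tissue as mouse colon cancer cells, and 3 of 8 colon epithelium markers had too few counts to test. Cdx2, the intestinal transcription factor, had 0 counts in all 17 tumors, which allows up to 0.168 to 0.222 CPM, and Krt20 and Vil1 were the others. Of the 5 tested, 0 had an unadjusted edgeR p under 0.05, and their median log2 fold change of 1.65 turned to -0.36 without Cryoablation replicates 2, 4 and 5. Their mean log2 CPM was 4.34 to 4.57 in Cryoablation replicates 2, 4 and 5, -0.88 to 3.49 in the other 5 and -0.51 to 4.12 in Control. The keratin genes Krt8, Krt18 and Krt19 averaged 40.5, 38 and 68.2 CPM in the 3 tumors, 3.31, 3.25 and 6.46 CPM in the other 5 and 5.43 ± 6.77, 4.01 ± 5.09 and 8.18 ± 9.65 CPM (SD, n = 9) in Control. Cdh1, which encodes E-cadherin, did not share this pattern, at 13.5, 12.9 and 16.7 ± 6.64 CPM. The same 3 tumors held the highest Psmb8, Tap2 and Psmb10 levels, and the part of such cells in the class I values was not tested.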

How the data were processed

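Bulk RNA sequencing of 9 Control and 8 Cryoablation tumors was analysed. Per the methods, bead-captured mRNA was fragmented and run on a NovaSeq instrument. The authors deposited a count of reads per gene, not normalized, and FPKM, which equalled the count over gene length and total count and served for levels only. Aligner, counting program and strandedness are not given in the sources used here. The submitters' processing notes name GRCm38 and mm10, but the table's positions equal those of GENCODE M21 for 499 of 21827 genes, so no build is given for them. Groups came from the sample titles, and 0 columns were unmapped.

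Counts were tested with edgeR 4.0.16 (R 4.3.3; TMM, filterByExpr, quasi-likelihood F test, group as the only term) and adjusted over 13005 genes. Log2 CPM of members (prior count 2) also entered two-sided exact permutation tests over all splits into 9 and 8, whose smallest p is 4.11e-05 (0.0005 without Cryoablation replicates 2, 4 and 5). Ratios used a prior of 0.5 reads. Correlations used 100000 permutations. Of 29 planned relations, 10 concern a gene not reported here, and adjustment was over the other 19. Principal components were computed on 500 genes. Alternatives were DESeq2 1.42.0, limma 3.58.1 voom with quality weights, other normalizations and filters, a replicate block, each tumor left out, no Cryoablation replicates 2, 4 and 5, and offsets for gene length and GC content per tumor (splines, 4 degrees of freedom). Genes named are the members, the passing or largest genes of each list, and those among the 10 genes most like the members. Other genes of a list were named after their values were seen. Members and lists were chosen with earlier results of these data known. On simulated counts (12936 genes), the quasi-likelihood test recovered 98% of genes changed by 2 on the log2 scale and 77.8% of those changed by 1, with 2.78% of calls false. Limits for a count of 0 (3 counts) cover counting error only.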

Additional observations from a re-analysis of the deposited data

Results flagged for a closer look

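In the 26 groups of tumors checked for 1 tumor far from the others, 2 were found, and chance gives about 1 in 20 groups. Both concerned Control replicate 5, which had 99.1 CPM of Psmb8 and 316 CPM of Psmb10, each well above the other 8 Control tumors. This tumor also had the highest share of ribosomal protein counts in the Control group, 10.7%, and without it the log2 fold changes were 0.85 for Psmb8 and 0.74 for Psmb10, both under an unadjusted edgeR p of 0.05. The cause was not tested.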

How the results depend on the processing

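No gene passed an adjusted p of 0.05 under any of the 26 alternatives. Without Cryoablation replicates 2, 4 and 5, the log2 fold changes turned for H2-D1 (-0.02), B2m (-0.05), Tap2 (-0.13), Tapbp (-0.20), Psmb8 (-0.17), Psmb9 (-0.11), Psmb10 (-0.30) and Nlrc5 (0.03), as did the ratios Psmb9/Psmb6 (0.11) and Psmb10/Psmb7 (-0.30). Limma voom turned B2m (-0.06), Tapbp (-0.18) and Psmb9 (-0.06), the offsets turned B2m (-0.15), and leaving out Cryoablation replicate 2 turned Tapbp (-0.00, with up to 0.15 for other tumors). The cause was not tested. Members at an unadjusted p under 0.05, 2 in the edgeR test, were 1 with upper-quartile normalization, 0 with limma voom, 0 without those 3 tumors and 0 to 4 when 1 tumor was left out. Genes at that threshold, 639 in all, became 1312 with limma voom, 992 with no filter, 325 without those 3 tumors and 252 (without Cryoablation replicate 2) to 1388 (without Cryoablation replicate 3) when 1 tumor was left out. At the study's threshold 64 genes became 432 with no filter, 40 with the offsets and 34 to 165 with 1 tumor left out. Leaving out 1 tumor gave 0.07 to 0.24 for Psmb8/Psmb5, -0.23 to 0.03 for Psmb9/Psmb6, which turned to 0.01 without Control replicate 2, 0.03 without Control replicate 3 and 0.00 without Cryoablation replicate 4, and 0.17 to 0.56 for Psmb10/Psmb7, whose lowest was without Cryoablation replicate 4. Of 19 relations, 3 passed at 17 tumors, 8 without those 3 and 9 with the offsets as well, a setting added after the data were seen.

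Tumors with the same replicate number deviated together for some numbers only. The r was 0.61, 0.64 and 0.48 for replicates 3, 5 and 6, 0.20 for replicate 4 and -0.51 to 0.01 for the others. Of 8 Control tumors, 2 correlated best with their own number. With the replicate block, 0 members and 446 genes had an unadjusted p under 0.05, and 33 genes passed the study's threshold. The log2 fold changes of Psmb8 and Tap2 were then 0.48 and 0.34. The block left the direction of the 3 proteasome ratios as it was, at 0.11, -0.12 and 0.36.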
